A study of Homo sapiens with 2 samples.

Results

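MYC, MAX and 8 further genes of their network were examined in HL-60, a human myeloid leukaemia line in which MYC is known to be amplified. The 10 genes were taken by name (MYC, MYCN, MAX, MLX, MXD1, MXI1, MXD3, MXD4, MNT and MGA), and each had 1 probe set of its own among the 18404 genes that could be named on the array. The series holds 1 group of 2 arrays, both of total RNA from wild-type HL-60 cells with no treatment named, labelled as replicates 1 and 2. Nothing in the labels ties the replicates to separate cultures, so the spread between them may be technical, and with 1 group no test between conditions exists. The series' design text concerns DNMT1 and RNA, DNA methylation and gene expression, and no manipulation of DNMT1 is among these arrays.

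The proteins of this network share a basic helix-loop-helix leucine zipper, with which they pair and bind the E-box, the DNA hexamer CACGTG. MYC and its paralogue MYCN pair with MAX and activate genes of growth, ribosome production and metabolism, and MYC is known to be shut down when HL-60 cells differentiate. The MXD proteins, MXI1 and MNT compete with MYC for MAX and recruit the SIN3-HDAC corepressor to the same sites. MGA, which also has a T-box, pairs with MAX within a variant Polycomb complex. MLX stands in for MAX in a parallel branch, where it pairs with the glucose-responsive factors MLXIP (MondoA) and MLXIPL (ChREBP) and with some of the antagonists.

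The E-box itself was found in the promoters of 3 network genes, and these stretches are shown because they hold the site that the network's own proteins bind. RefSeq promoter windows on build GRCh38.p14, each 300 bases long with 250 bases before the transcription start, were read for 9 of the 10 genes (not MYC), in 14 windows. The motif CACGTG, which reads the same on both strands, lay in 1 window each of MLX, MXD4 and MNT. In the whole table it lay in 7.26% of 35116 windows. The stretches before the start are written in the direction of the gene, with the E-box in capitals. That of MLX lies at chr17:42567003-42567099 on the plus strand, that of MXD4 at chr4:2262295-2262359 on the minus strand and that of MNT at chr17:2401201-2401300 on the minus strand.
MLX: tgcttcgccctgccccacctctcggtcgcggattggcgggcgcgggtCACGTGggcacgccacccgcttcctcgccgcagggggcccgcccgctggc
MXD4: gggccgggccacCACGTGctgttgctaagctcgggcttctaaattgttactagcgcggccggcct
MNT: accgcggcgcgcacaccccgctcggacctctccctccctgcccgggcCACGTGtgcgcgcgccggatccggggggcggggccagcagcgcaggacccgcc
The E-box began 50 bases before the start in MLX, 193 bases before it in MNT and 238 bases before it in MXD4. The related hexamer CACGCG, searched on both strands, lay in 1 window each of MXD3, MXI1 and MGA, and in 11.4% of all windows. A match is a description of these letters and does not show that a protein binds there.

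Signals are given as RMA values on the log2 scale. To count as above background, a gene had to exceed the 95th percentile of 340 olfactory receptor genes on both arrays. That threshold was 2.87 on replicate 2 and 2.98 on replicate 1. A second threshold, from 116 genes of other restricted families (beta-defensins, bitter taste receptors and keratin-associated proteins), was 5.22 on replicate 2 and 5.40 on replicate 1. Of the network genes, 9 of 10 were above the olfactory threshold, against 55.8% of all genes; counted on replicate 2 alone they were 10 of 10 (60.6% of all genes) and on replicate 1 alone 9 of 10 (58.7%). The second threshold was exceeded by 5 of 10, MYC, MAX, MLX, MXI1 and MGA, against 17.1% of all genes. The median of the 10 genes' mean signals was 5.49, and that of all genes was 3.33. A probe set's signal depends on its probes as well as on the RNA, so the order of different genes is an order of signals and not of transcript amounts.

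The myeloid label was checked on marker genes. All 7 measured promyelocyte markers cleared the olfactory threshold, and 5 the second, with the progenitor factor MYB (9.41 ± 0.17, SD, n = 2, as for each mean below), the granule proteoglycan gene SRGN (9.13 ± 0.17) and the granule protease gene CTSG (8.12 ± 1.24) the highest and AZU1 (3.10 ± 0.13) the lowest. Of the markers of other lineages, 1 of 5 for T and NK cells, 2 of 3 for B cells, 1 of 2 for erythroid cells and 1 of 4 for epithelial cells passed the olfactory threshold, and 0 passed the second. Since 55.8% of all genes passed the olfactory threshold, the B cell and erythroid counts lay near that share. The second threshold was passed by 17.1% of all genes. Over all genes, replicate 2 minus replicate 1 varied with an SD of 0.39, which is 0.28 per array.

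MYC gave the highest signal of the network on both arrays, and MYCN the lowest. MYC read 8.21 on replicate 2 and 8.63 on replicate 1, a mean of 8.42 ± 0.29. These values placed it at percentile 98.6 of all genes on replicate 2 and at percentile 99.2 on replicate 1. No other network gene came near it in signal, since the next was 6.34 on replicate 2 (MAX) and 6.50 on replicate 1 (MGA). The gap was several times the SD per array. That SD is of the same gene between arrays and does not measure the spread between probe sets of different genes. MYCN, the paralogue best known from neural tumours, read 2.91 on both arrays, which was above the olfactory threshold on replicate 2 and below it on replicate 1. The deposited MYCN values were exactly equal, as were those of 962 genes (5.23%), so an SD of 0 does not show a smaller error. MYCL, the remaining paralogue, read 2.82 on replicate 2 and 2.69 on replicate 1, below the threshold on both. Of the MYC paralogues, MYC alone was therefore above background on both arrays.

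**Figure D1:**
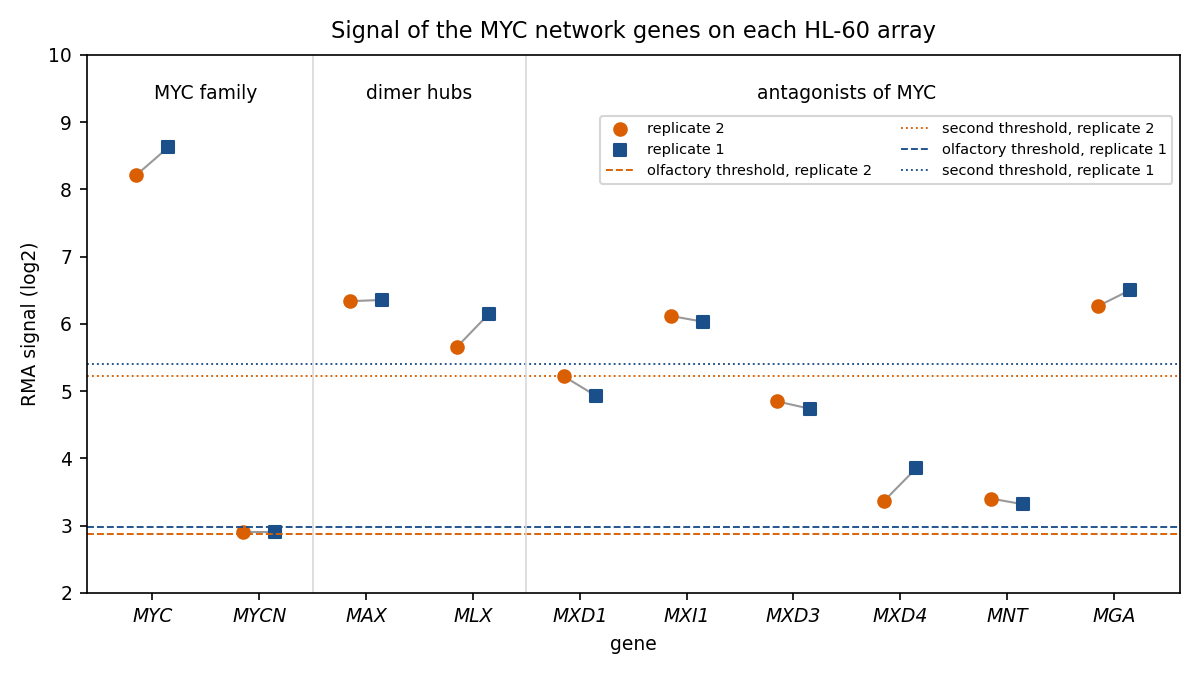
RMA signal (log2, vertical axis) of each network gene, with replicate 2 as an orange circle and replicate 1 as a blue square, joined by a grey line; dashed lines are the olfactory threshold and dotted lines the second threshold of each array. MYC stands alone above 8, MAX, MLX, MXI1 and MGA lie above the second threshold on both arrays, and MYCN lies at the olfactory threshold.

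The dimerisation partners MAX and MLX were both above the second threshold. MAX, the obligate partner of MYC and a partner of its antagonists, read 6.34 on replicate 2 and 6.36 on replicate 1 (6.35 ± 0.01). Among the 1431 genes whose mean signal lay within 0.5 of that of MAX, 95.5% differed between the arrays by at least as much as MAX did. MLX, the partner of the MondoA branch, read 5.66 on replicate 2 and 6.15 on replicate 1 (5.90 ± 0.35). It had the largest difference of the 10 network genes, -0.50 (replicate 2 minus replicate 1), a size that 22.8% of 1724 genes of similar signal reached.

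The 6 antagonists covered a wide range of signals, and all of them were above the olfactory threshold. MXI1, a repressor of the MXD family, read 6.12 on replicate 2 and 6.03 on replicate 1 (6.08 ± 0.06). MGA read 6.26 on replicate 2 and 6.50 on replicate 1 (6.38 ± 0.17). These antagonists were the only ones above the second threshold on both arrays.

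MXD1, known to be induced as myeloid cells mature, read 5.22 on replicate 2 and 4.93 on replicate 1 (5.08 ± 0.20). On replicate 2 its value lay just below the second threshold of that array. MXD3, the family member tied to S phase in proliferating cells, read 4.85 on replicate 2 and 4.74 on replicate 1 (4.79 ± 0.08). MXD4, another repressor of the family, read 3.37 on replicate 2 and 3.85 on replicate 1 (3.61 ± 0.34). MNT, the most widely expressed of the repressors, read 3.40 on replicate 2 and 3.32 on replicate 1 (3.36 ± 0.06). MNT and MXD4 were the lowest of the antagonists and lay below the 99th percentile of the olfactory receptors (3.78 on replicate 2, 3.52 on replicate 1) on at least 1 array, so that 7 of 10 network genes exceeded that stricter limit, against 40.1% of all genes. The MNT signal lay near the median of all genes, at percentile 51.2 on replicate 2 and 49.4 on replicate 1.

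Ordered by mean signal, the genes ran MYC, MGA, MAX, MXI1, MLX, MXD1, MXD3, MXD4, MNT and MYCN. MGA and MAX changed places between the arrays, as did MXI1 and MLX, and MXD4 and MNT, so these orders do not hold against the spread. MAX and MXI1 kept their order but lay 0.22 apart on replicate 2 and 0.32 apart on replicate 1. MXD1 and MXD3 also kept their order but lay 0.37 apart on replicate 2 and 0.19 apart on replicate 1, and both gaps were within the SD of 0.39 that a difference between the arrays has. The steps from MYC to MGA (2.04 between the means), from MLX to MXD1 (0.83) and from MXD3 to MXD4 (1.18) were larger than that SD. The step from MLX to MXD1 was uneven, at 0.44 on replicate 2 and 1.22 on replicate 1. MNT and MYCN lay 0.45 apart, just past that SD. The SD describes the same gene on 2 arrays and not the spread between probe sets of different genes.

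None of the 10 network genes (0 of 10) passed the limit of a log2 difference of 0.5 between the arrays in either direction, against 17.5% of all genes. With only 10 genes, a count of 0 lies near that share and does not set the network apart. MLX (-0.50), MXD4 (-0.48) and MYC (-0.41) were the nearest to that limit, all lower on replicate 2, and the unrounded MLX value lay just inside it. The MYC difference corresponds to a 1.33-fold lower signal on replicate 2, and 28.0% of the 232 genes of similar signal differed by at least as much. MGA (-0.24) and MAX (-0.02) were also lower on replicate 2, which makes 5 of 10, against 52.6% of all genes. MXD1 (0.29), MXD3 (0.11), MXI1 (0.09) and MNT (0.09) were higher on replicate 2, 4 of 10 against 42.1% of all genes. The antagonists were thus divided, with 4 of 6 higher on replicate 2 and with MXD4 and MGA lower there, as MYC was.

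**Figure D2:**
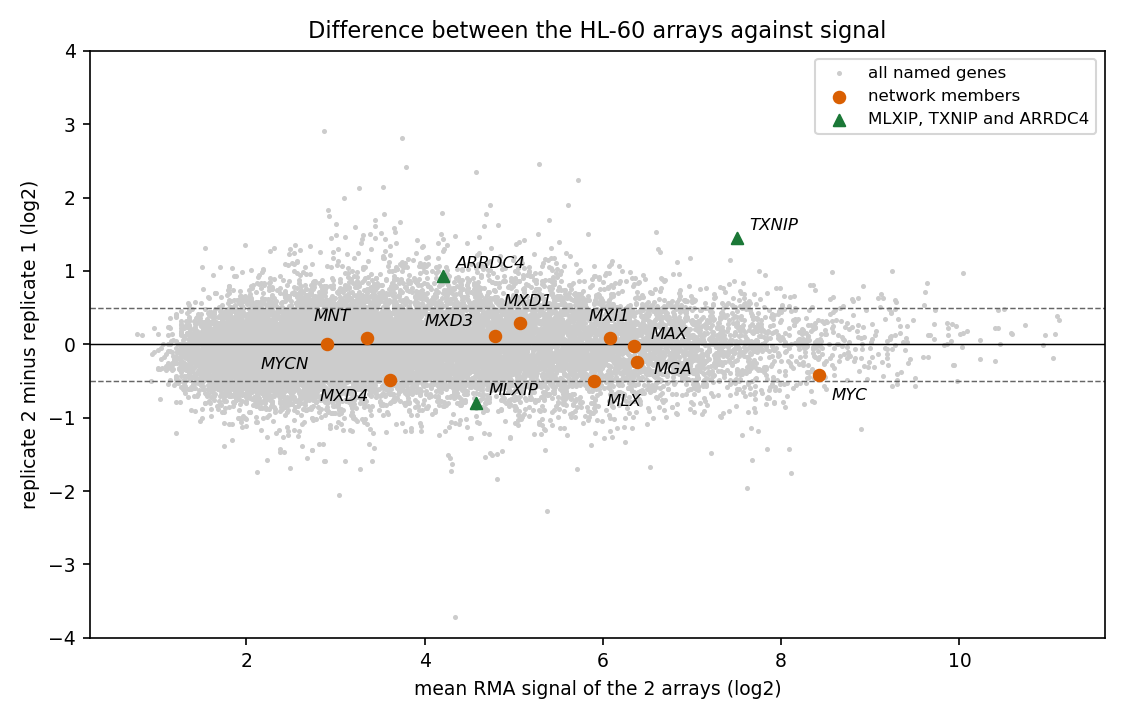
Difference between the arrays (replicate 2 minus replicate 1, log2, vertical axis) against the mean signal (log2, horizontal axis) for all named genes in grey, the network genes as orange circles and MLXIP, TXNIP and ARRDC4 as green triangles; dashed lines mark 0.5 in each direction. The 10 network genes lie inside the dashed lines, while TXNIP (1.45) and ARRDC4 (0.93) lie above and MLXIP (-0.80) below.

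Targets of the MondoA branch, TXNIP and ARRDC4, had the largest differences among the 10 network genes and the 113 measured genes of the other lists, which do not include the lineage markers (CTSG, at -1.75, and PRTN3, at -1.48, differed more). MLXIP read 4.18 on replicate 2 and 4.97 on replicate 1, a difference of -0.80 that 6.77% of 2616 genes of similar signal reached. MLXIPL, the ChREBP gene, read 3.09 on replicate 2 and 2.87 on replicate 1 and was above the olfactory threshold on replicate 2 only. TXNIP, a glucose-responsive target of MondoA and MLX that limits glucose uptake, read 8.23 on replicate 2 and 6.78 on replicate 1. The TXNIP difference of 1.45 corresponds to a 2.73-fold higher signal on replicate 2, a size that 0.65% of 615 genes of similar signal reached. Of the 113 genes of the other lists, 1 passed a difference of 1, TXNIP itself, against 1.96% of all genes. TXNIP was singled out as the largest of these differences, so its small share does not show that it is exceptional.

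ARRDC4, a relative of TXNIP with the same kind of regulation, read 4.67 on replicate 2 and 3.75 on replicate 1. That difference of 0.93 was reached by 3.54% of 2882 genes of similar signal. SRM (-0.92) and USP37 (0.91), of other lists, differed by nearly as much. The lipid synthesis genes of the list went the other way: FASN read 4.19 on replicate 2 and 4.92 on replicate 1, and ACLY 6.76 on replicate 2 and 7.09 on replicate 1. Of the 6 genes of this list 3 were higher on replicate 2 by more than 0.5, TXNIP, ARRDC4 and KLF10 (0.55), against 7.95% of all genes. FASN (-0.74) alone was lower by more than 0.5, against 9.58% of all genes. PKLR, the liver pyruvate kinase gene, was the lowest (3.04 ± 0.13) and passed the olfactory threshold on replicate 2 only. Both MLX and MLXIP thus read lower on the array on which TXNIP and ARRDC4 read higher. With 1 array on each side these differences have no replicate check.

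The promoters of TXNIP and ARRDC4 are shown because they hold E-box-type hexamers and the genes had differences of 1.45 and 0.93. Of the same list PKLR held CACGTG, as ARRDC4 did, and differed by only 0.18. Whether the hexamers bear on the differences was not tested. The ARRDC4 stretch, chr15:97960453-97960545 on the plus strand, held CACGTG beginning 210 bases before the start. The TXNIP stretch, chr1:145996604-145996714 on the minus strand, held no CACGTG but a pair of CACGAG hexamers with 5 bases between them, beginning 88 and 77 bases before the start. CACGAG, searched on both strands, lay in 6.78% of all windows and in 0 of the 14 windows of the network genes. Capitals mark these hexamers.
ARRDC4: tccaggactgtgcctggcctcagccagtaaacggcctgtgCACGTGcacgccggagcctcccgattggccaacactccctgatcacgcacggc
TXNIP: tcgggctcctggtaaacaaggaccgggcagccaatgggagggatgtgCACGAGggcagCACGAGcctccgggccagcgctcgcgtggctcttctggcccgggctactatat

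Genes that MYC is known to induce had high signals. Of 23 measured genes of that list, 22 cleared the olfactory threshold, against 55.8% of all genes, and 18 the second, against 17.1%, with a median of 7.39. The nucleolar protein gene NCL (10.94 ± 0.01), the polyamine enzyme gene ODC1 (9.30 ± 0.38) and the mitochondrial chaperonin gene HSPD1 (9.19 ± 0.05) were the highest. The cap-binding factor gene EIF4E, at 2.32 ± 0.14, was the lowest and not above background. It was read by 1 probe set, whose signal depends on its probes too, so absence of the RNA is not shown. NPM1 and PTMA were means of 3 and 6 probe sets that lay up to 8.91 and 8.28 apart, and both have many processed pseudogenes, so their values are uncertain.

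On replicate 2, 18 of the 23 induced genes were lower, against 52.6% of all genes. Their median difference was -0.19, and that of all genes was -0.04. The MYC difference of -0.41 was of a size that 28.0% of 232 genes of similar signal reached. Whether the targets' differences are linked to that of MYC was not tested, and with 1 array on each side there is no replicate check. By more than 0.5, 3 of 23 were lower (SRM, TFAP4 and ODC1), against 9.58% of all genes, and 1 was higher (HK2), against 7.95%, so these counts lay near the shares over all genes. The spermidine synthase gene SRM had the largest difference of the list (7.17 on replicate 2 and 8.09 on replicate 1), followed by the MYC target factor gene TFAP4 (3.99 and 4.68 in the same order). Both were picked out after their values were seen. Of the 7 promyelocyte markers, 4 were lower on replicate 2, CTSG (-1.75), PRTN3 (-1.48), MPO (-0.73) and SRGN (-0.25), and 3 were higher, MYB (0.24), ELANE (0.24) and AZU1 (0.18). The part of these marker differences in those of the targets was not tested.

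Genes that MYC is known to repress, often through the zinc finger factor ZBTB17 (MIZ1), had signals close to the median of all genes. Of 11 measured, 8 cleared the olfactory threshold, against 55.8% of all genes, and 0 the second, against 17.1%, with a median of 3.41. The cell cycle inhibitor gene CDKN1B (4.82 ± 0.09), the cyclin gene CCND1 (4.68 ± 0.44) and CDKN1C (4.29 ± 0.02) were the highest, and the growth arrest gene GAS1 (2.08 ± 0.01) was the lowest. CDKN1A, which encodes p21, read 2.40 on replicate 2 and 2.03 on replicate 1 and was not above background. On replicate 2, 8 of the 11 were higher, against 42.1% of all genes, with a median difference of 0.12. The 11 include CDKN1A (higher) and GAS1 and THBS1 (both lower), which were above background on neither array, so their directions mean little. By more than 0.5 the stress gene GADD45A (0.65), CCND1 (0.63) and the differentiation gene NDRG1 (0.56) were higher, 3 of 11 against 7.95% of all genes. By that limit 0 were lower, against 9.58%. A link of these differences to that of MYC was not tested, and they too rest on 1 array on each side.

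**Figure D3:**
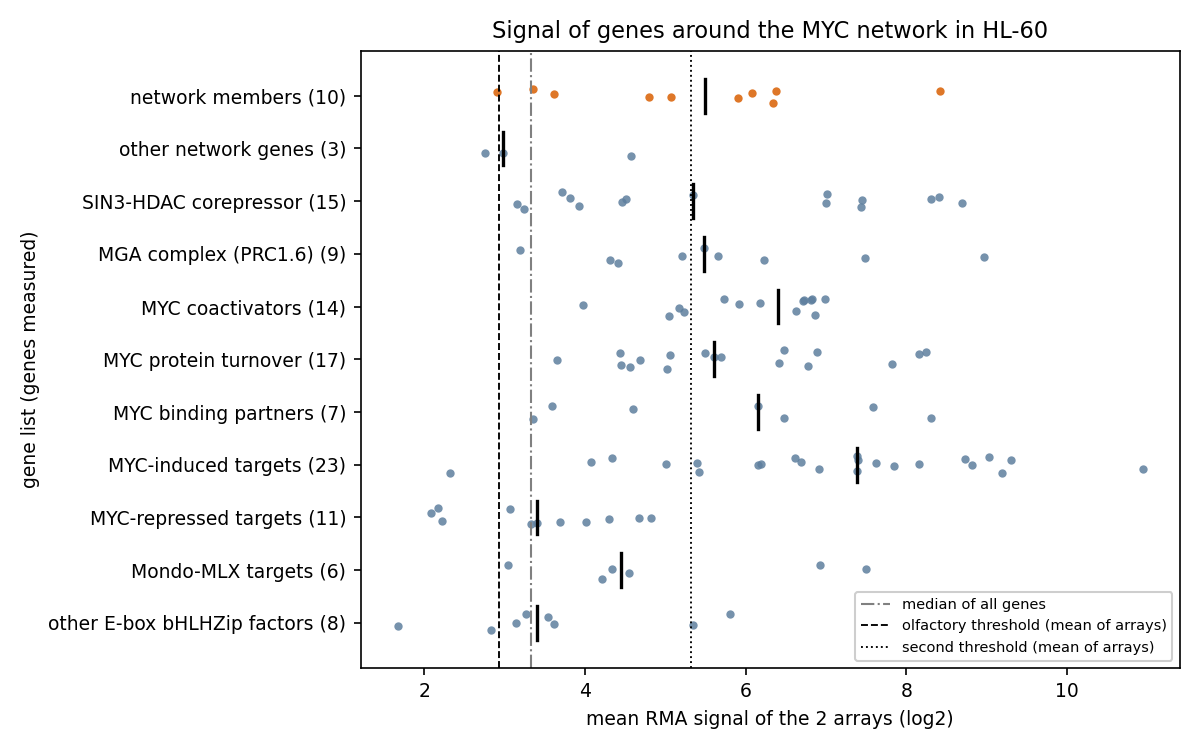
Mean RMA signal of the 2 arrays (log2, horizontal axis) of each measured gene, by list, with the number of genes in brackets; black bars are list medians, and vertical lines mark the median of all genes and both thresholds, each averaged over the arrays. Of the lists drawn, which leave out the lineage markers, the induced targets of MYC have the highest median (7.39), and the repressed targets (3.41) lie close to the median of all genes (3.33).

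Cofactors of both MYC and its antagonists were mostly above background. The shares of all genes to set beside the next 4 lists are 55.8% for the olfactory threshold and 17.1% for the second. All 14 measured coactivators cleared the olfactory threshold and 10 the second, led by the ATPase gene RUVBL2 (6.99 ± 0.56), the chromatin reader gene BPTF (6.87 ± 0.02) and the remodeller subunit gene SMARCB1 (6.83 ± 0.57). KAT5 was the lowest (3.97 ± 0.13). In this list 5 genes were lower on replicate 2 by more than 0.5, SMARCB1 (-0.81), RUVBL2 (-0.79), RUVBL1 (-0.54), KAT2A (-0.52) and ACTL6A (-0.51), against 9.58% of all genes. By that limit 0 were higher, against 7.95%. At any size the list was evenly split, with 7 lower on replicate 2 (52.6% of all genes) and 7 higher (42.1%). The largest of the higher ones were CDK9 (0.45) and CREBBP (0.38). The acetyltransferase gene KAT5 (0.18), the scaffold gene TRRAP (0.06) and the helicase gene EP400 (0.05) differed little.

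Of 15 measured SIN3-HDAC genes 14 cleared the olfactory threshold and 7 the second. SUDS3, not among those 7, was the mean of 2 probe sets that lay 2.13 apart. One of them was above the second threshold on both arrays. HDAC2 (8.70 ± 0.37), SAP18 (8.41 ± 0.06) and HDAC1 (8.31 ± 0.26) were the highest. The scaffold gene SIN3A, which the MXD proteins contact, read 7.04 on replicate 2 and 6.95 on replicate 1. Its relative SIN3B read 3.56 on replicate 2 and 2.92 on replicate 1, below the olfactory threshold on replicate 1. The lowest was the corepressor subunit gene BRMS1 (3.15 ± 0.02).

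The partners of MGA in its Polycomb complex were all above the olfactory threshold (9 of 9 measured), and 5 were above the second. The E2F partner gene TFDP1 (8.97 ± 0.22), WDR5 (7.48 ± 0.35) and the heterochromatin protein gene CBX3 (6.22 ± 0.11) were the highest. The complex-defining PCGF6 read 5.48 ± 0.01, L3MBTL2 4.31 ± 0.11 and E2F6 5.21 ± 0.14. PCGF6 was the mean of 2 probe sets that differed between the arrays in opposite directions. One read 5.23 on replicate 2 and 5.66 on replicate 1, the other 5.75 and 5.29 in the same order. Its small SD therefore does not show a small error, and the other probe set lay below the second threshold on replicate 1. RING1 was the lowest at 3.19 ± 0.03, as the mean of 2 probe sets that lay 3.44 apart, so its level is uncertain.

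Genes that control the stability of the MYC protein were above the olfactory threshold in 17 of 17 measured cases and above the second in 9. SKP2, which encodes a ubiquitin ligase subunit that acts on MYC, was the highest (8.25 ± 0.58). It read 7.84 on replicate 2 and 8.66 on replicate 1, a difference of -0.82 that 2.88% of 278 genes of similar signal reached. The phosphatase inhibitor gene SET (8.16 ± 0.35) and the ligase gene HUWE1 (7.82 ± 0.12) followed. FBXW7, which encodes the subunit that marks phosphorylated MYC for destruction, read 4.44 on replicate 2 and 4.69 on replicate 1. The deubiquitinase gene USP37 was higher on replicate 2 (5.95, against 5.03 on replicate 1). AXIN1 was the lowest (3.65 ± 0.09).

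Among genes named for binding MYC, all 7 measured cleared the olfactory threshold and 4 the second. PFDN5 (8.31 ± 0.20), which encodes a prefoldin subunit, MYCBP2 (7.58 ± 0.02) and YY1 (6.48 ± 0.11) were the highest. ZBTB17, the partner in repression, was the lowest (3.36 ± 0.03).

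**Figure D4:**
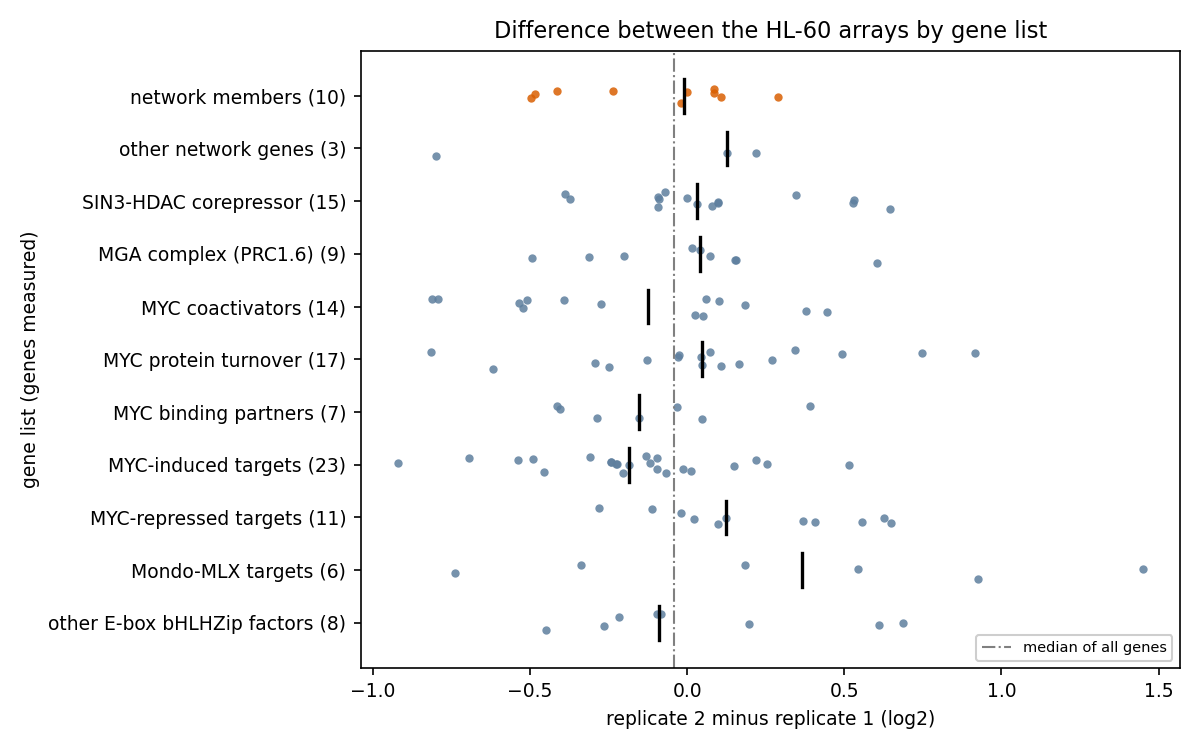
Difference between the arrays (replicate 2 minus replicate 1, log2, horizontal axis) of each measured gene, by list, with list medians as black bars and the median of all genes (-0.04) as a vertical line. Medians below that line are those of the induced targets (-0.19), the MYC binding partners (-0.15), the coactivators (-0.13) and the other E-box factors (-0.09); the other medians lie above it, up to that of the Mondo-MLX targets (0.36).

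The E-box was frequent in the promoters of the induced targets. Of 19 induced genes with a window, 11 held CACGTG (57.9%), against 10.9% of the 14230 measured genes with a window and against 0 of 7 repressed genes. Such targets were in part recognised through their E-boxes, so that share is not independent of the list. The windows of ODC1, which had the highest signal among these genes, and of SRM, which had the largest difference, are shown as examples. That of ODC1 lies at chr2:10448013-10448088 and that of SRM at chr1:11060165-11060264, both on the minus strand, with the E-box in capitals 29 bases before the start in ODC1 and 199 bases before it in SRM. The ODC1 window held another CACGTG just after the start, outside the stretch shown.
ODC1: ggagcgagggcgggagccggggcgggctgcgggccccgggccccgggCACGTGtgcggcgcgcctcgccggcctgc
SRM: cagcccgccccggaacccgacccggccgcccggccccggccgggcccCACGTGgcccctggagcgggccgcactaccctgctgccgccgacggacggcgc

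Across the array, genes with an E-box in the promoter window were more often above background than genes without it. Of 1557 genes with CACGTG, 1081 (69.4%) were above the olfactory threshold, against 7193 of 12673 genes without it (56.8%). Genes with the E-box also had higher counts of CpG dinucleotides, with a median of 29 against 24. Each gene's count is that of its window richest in CpG, which need not be the window with the E-box. A gene with more windows has more chances of an E-box and of a high count. CpG-rich promoters typically belong to widely used genes. Among genes with a count of at least 25 CpG the shares were 75.8% with the E-box and 71.0% without it. Among genes with a lower count they were 56.7% with the E-box and 42.8% without it. Genes with the E-box still had higher CpG counts there (a median of 17 against 11). For genes with a single window the shares were 72.3% with the E-box and 56.0% without it. These are counts over genes, which are not independent replicates. The median difference between the arrays was -0.06 for genes with the E-box and -0.03 for genes without it, far below the SD over genes.

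**Figure D5:**
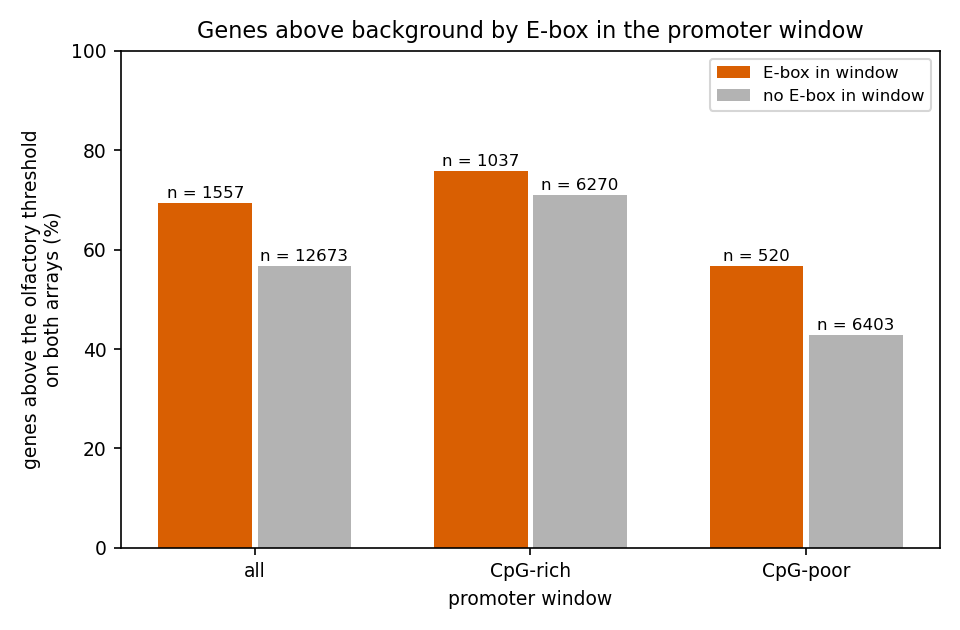
Share of genes above the olfactory threshold on both arrays (percent, vertical axis) for genes with CACGTG in a promoter window in orange and without it in grey. Bars are given for all genes with a window and for CpG-rich and CpG-poor genes, classed by each gene's window richest in CpG. The number of genes stands above each bar. The share is higher with the E-box in each class (69.4% against 56.8% over all genes with a window). The gap is narrowest in CpG-rich genes (75.8% against 71.0%).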

How the data were processed

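Total RNA of HL-60 cells (200 ng per sample) was amplified, biotin-labelled and hybridised to Affymetrix Human Gene 1.0 ST arrays, per the labels' protocols. The authors made the deposited signals with RMA, per the submitters' processing notes. The deposited values were taken as log2 because base 2 is RMA's own; the base is not stated. Scanner files were not used here, so detection could not be read per probe, and precision is limited by having 2 arrays.

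The platform annotation gave a single gene symbol to 19158 of 32321 probe sets. Symbols were updated through Entrez IDs (19128 found in RefSeq, GRCh38.p14), which gave 18404 genes, and several probe sets of a gene were averaged. Members and lists were chosen with earlier results of these data known. Named genes were the members and, of each other list (lineage markers aside), the 3 highest, the lowest and any that differed by more than 1; others were picked after their values were seen. No p-values were computed, since there is 1 group. The code for threshold calls and differences was also run on simulated data. That run gives no outcome here for genes close to a threshold or to the difference limit, so it lends such calls no support. Promoter windows came from RefSeq. "CpG-rich" means that the highest CpG count among a gene's windows was at or above the median over genes, 25. The tools were statsmodels 0.14.6, pandas 2.3.3, numpy 2.4.6 and matplotlib 3.10.9 under Python 3.11.15.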

Additional observations from a re-analysis of the deposited data

Results flagged for a closer look

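Of the genes on the lists around the network, 10 had no probe set of their own, and 3 probe sets that carry several gene symbols include such a gene. All 3 exceeded the olfactory threshold, and the second threshold, on both arrays. They were picked out because they show signal outside the named genes, and they are not assigned to a gene.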

How the results depend on the processing

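No paired analysis was possible because both arrays belong to 1 group. With the second background set as threshold, 5 in place of 9 network genes, 56 in place of 102 genes of the other lists and 400 in place of 1081 genes with an E-box were above background, since that threshold is higher. With the stricter olfactory limit (99th percentile) the network count was 7, without MXD4 and MNT. Leaving out each replicate in turn gave 9 to 10 network genes (MYCN joined without replicate 1), 103 to 106 genes of the other lists, 1123 to 1136 genes with an E-box and a median network signal of 5.44 to 5.48 in place of 5.49. The count of network genes differing by more than 0.5 was 0 with quantile normalization and with a loess trend removed; the highest probe set per gene and a filter on dim genes could not change it, since each has 1 probe set and a filter adds no gene. The MYC difference lay between -0.43 and -0.41, and that of TXNIP between 1.45 and 1.46, over the alternatives for scaling. The median difference of the network genes, -0.01, became 0.01 after quantile normalization and 0.02 after loess, and none of the 3 differs from 0 beyond the spread.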

Other observations

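Other factors with a helix-loop-helix leucine zipper that bind the same E-box were measured as well. Of 8 measured, 5 cleared the olfactory threshold and 1 the second, close to the shares over all genes (55.8% and 17.1%). USF2 (5.81 ± 0.06), the sterol factor gene SREBF2 (5.35 ± 0.43) and MITF (3.62 ± 0.14) were the highest, and TFEC (1.67 ± 0.19) was the lowest. USF1 read 3.49 on replicate 2 and 2.80 on replicate 1 and was above background on replicate 2 only, while TFE3 read 2.61 on replicate 2 and 3.05 on replicate 1 and was above background on replicate 1 only.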
